A study of Rattus norvegicus with 4 samples.

Results

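The genes of the G1 restriction point were described in 4 rat mammary cancers: the D cyclins Ccnd1, Ccnd2 and Ccnd3, the E cyclin Ccne1, the kinases Cdk4 and Cdk6, the retinoblastoma gene Rb1, and the inhibitors Cdkn2a, Cdkn2b and Cdkn1b. They were chosen by name as regulators of the step from G1 into S phase, and every probe set that the platform annotation assigned to only 1 of them was taken. This gave 13 probe sets for all 10 genes, out of 14217 named genes on an array of 31099 probe sets. No probe set named a member together with another gene. All 10 gene identifiers carried the same symbol in RefSeq's table of rat genes (assembly GRCr8).

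The animals were female Sprague-Dawley rats, which are outbred, and received carbon ions to the whole body in 1 dose of 0.5 Gy when they were 7 weeks old. The carbon beam (290 MeV/u) delivered its dose over a depth of 6 cm, its spread-out Bragg peak. From 9 weeks of age the animals ate a diet with 23.5% corn oil, so irradiation and diet are shared by all 4 cancers. Each cancer was measured on 1 array of biotin-labelled RNA, and whether different animals gave the tumours is not in the labels. There is 1 group, unirradiated tissue is not analysed here, and no difference below measures an effect of radiation or diet. With 1 array a tumour, differences between tumours have no replicate check and no p-value is given.

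Cells commit to division when D cyclins, induced by growth signals, activate Cdk4 and Cdk6. These kinases phosphorylate the Rb1 protein, which otherwise holds E2F transcription factors in check, and E2F then drives Ccne1 and the genes of DNA synthesis. The INK4 proteins encoded by Cdkn2a and Cdkn2b block Cdk4 and Cdk6, and the p27 protein encoded by Cdkn1b blocks the later cyclin E kinase. In the mammary gland Ccnd1 acts downstream of steroid hormones and growth factor receptors. These proteins are controlled largely by phosphorylation and breakdown, which transcript levels do not record.

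Values are given as linear signal or as log2(signal + 16), where a difference of 1 is 2-fold for bright genes and understates the change of dim ones. Genes whose mean reached 7.81 log2, the median over all probe sets and a signal of about 209, are called expressed, and 9403 of the named genes were. Among the members 7 were expressed: Ccnd1, Ccnd2, Ccnd3, Cdk4, Rb1, Cdkn2a and Cdkn1b. Ccne1, Cdk6 and Cdkn2b were under that level. Cdkn2a (mean 7.89) was just inside it and Ccne1 (mean 7.76) just outside. Brightness depends on the probes, so levels of different genes are not ranked.

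The arrays were alike in scale, with a trimmed mean signal of 500.1 on each and medians between 202 and 222. The median expressed gene differed from the mean of the other 3 tumours by -0.04, 0.04, 0.03 and -0.02 log2 in tumours 1 to 4. Luminal epithelial markers were present in all 4, with 6 of 6 expressed. Their summed signal was 24959, 43205, 49977 and 43463 in tumours 1 to 4, and all 6 were lowest in tumour 1. All 6 macrophage markers were expressed and highest in tumour 1, with summed signals of 15860, 9458, 7761 and 10101. All 6 fibroblast markers were expressed and lowest in tumour 4, with 37745, 29348, 34578 and 11830. Of 5 basal markers all were expressed, and the sums were 22385, 20671, 16270 and 25175. Of 3 named endothelial markers 2 were expressed, and the sums were 1249, 778, 1217 and 784. Of 5 T-cell markers 1 was expressed, the pan-leukocyte gene Ptprc, with sums of 1338, 986, 354 and 905. None of the 2 named B-cell markers (sums of 89.9 to 174) and none of the 4 adipocyte markers (264 to 634) was expressed. No marker was listed at 0. In bulk tissue, fewer cells of a type and less transcript per cell cannot be told apart, and the part of tissue makeup in the differences below was not tested.

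**Figure D1:**
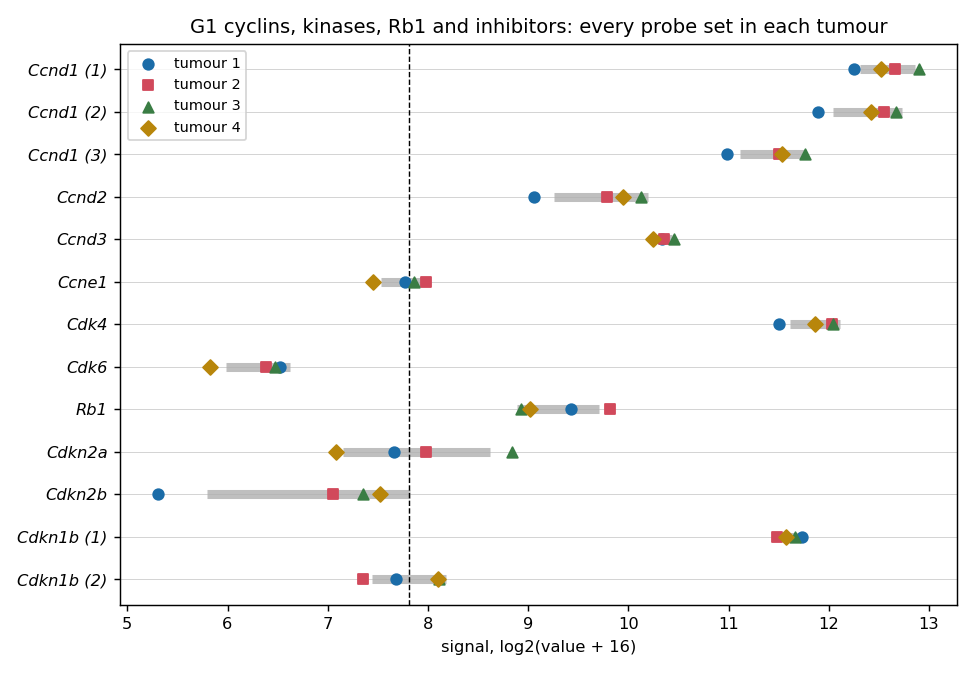
Signal of all 13 member probe sets in each tumour, on a log2(value + 16) axis, with 1 row a probe set (numbered from the brightest where a gene has several). Symbols are the 4 tumours, grey bars span the mean ± SD (n = 4 tumours), and the dashed line is the expression level of 7.81. Tumour 1 is the lowest point on all 3 Ccnd1 rows and on the rows of Ccnd2, Cdk4 and Cdkn2b.

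The members with the widest spread were the INK4 genes Cdkn2a and Cdkn2b, which lie close together on chromosome 5. The kinase gene Cdk4 was lowest in tumour 1, as were the D cyclins Ccnd1 and Ccnd2. These were 3 of 7 expressed members, near the 36.2% of all expressed genes lowest there, so no link between them is read from it. The sequence before the start site of Cdkn2a, Cdkn2b and Cdk4 is shown. It is the 250 bases upstream in the RefSeq promoter table (build GRCr8), which held 7 of the 10 members. Ccnd1, Ccnd2 and Cdk6 were not in it. Cdk4 lies at chr7:64771203-64771452 on the plus strand, with capitals on the E-box CACGTG, a motif bound by Myc proteins. Cdkn2a lies at chr5:109107957-109108206 on the minus strand, with capitals on the GC box GGGCGG, a motif bound by Sp1. Cdkn2b lies at chr5:109134856-109135105 on the minus strand, with capitals on the cAMP response element, found by its core TGACGT, which overlaps itself on the opposite strand here.
Cdk4: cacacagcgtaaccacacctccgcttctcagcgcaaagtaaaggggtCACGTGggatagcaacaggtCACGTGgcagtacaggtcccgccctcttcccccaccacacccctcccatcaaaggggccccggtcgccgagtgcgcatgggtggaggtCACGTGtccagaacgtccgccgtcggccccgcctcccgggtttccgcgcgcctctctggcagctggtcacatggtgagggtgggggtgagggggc
Cdkn2a: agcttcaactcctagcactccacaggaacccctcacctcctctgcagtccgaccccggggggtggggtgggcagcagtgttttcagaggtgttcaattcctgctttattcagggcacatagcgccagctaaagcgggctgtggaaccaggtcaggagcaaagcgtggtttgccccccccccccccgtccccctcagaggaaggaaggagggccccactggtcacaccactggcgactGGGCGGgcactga
Cdkn2b: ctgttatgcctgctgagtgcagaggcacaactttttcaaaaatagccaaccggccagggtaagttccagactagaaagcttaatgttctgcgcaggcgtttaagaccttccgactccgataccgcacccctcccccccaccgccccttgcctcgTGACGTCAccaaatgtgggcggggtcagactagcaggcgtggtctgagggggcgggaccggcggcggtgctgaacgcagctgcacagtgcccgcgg
Cdk4 held the E-box at 3 places, starting 203, 183 and 95 bases before the start site. At least 1 E-box was found in 5.59% of 33469 promoters of the same length, and 3 or more in 0.0508%. The GC box, searched on both strands, was present in 7 of 7 member promoters, against 30.5% of all promoters. The 7 windows held 60.8 to 81.2% G and C, and the share over all promoters is not matched for this. The GC box of Cdkn2a began 13 bases before the start. The core TGACGT was present in Cdkn2b and Ccnd3, and in 6.95% of all promoters. An E2F motif, TTTCCCGC or TTTGGCGC on either strand, was in 0 of the 7 member windows and in 1.21% of all, and TATAAA was in 0 of the 7 and in 12.9% of all. A match is only a match of letters, and a missing match says only that those letters are not in the window. Each window belongs to 1 start site, and the annotated gene reaches 6492 bases further upstream for Cdkn2a and 89324 for Ccnd3.

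The D cyclins, which start the sequence, differed from each other in how much they varied. Ccnd1 was bright in every tumour. Its brightest probe set read 4857, 6474, 7653 and 5870 in tumours 1 to 4, a mean of 6213 ± 1169 (SD, n = 4). The second read 3784, 5993, 6528 and 5483, and the third 2004, 2884, 3471 and 2940. Tumour 1 was lowest and tumour 3 highest on 3 of 3 probe sets. The range between those tumours was 0.65, 0.78 and 0.79 log2 on the 3 probe sets, under 2-fold on each, and on the brightest it was 0.38 without tumour 1 and 0.41 without tumour 3. The probe sets share RNA and array, so their agreement covers error of the probes only. Under quantile normalization the range of the brightest probe set was 0.42, with the same tumours at the ends.

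Ccnd2, a D cyclin also prominent in lymphoid cells, read 518, 867, 1105 and 971 in tumours 1 to 4. Tumour 1 was the low sample, 0.73 log2 under the next, and the other 3 lay within 0.35 log2 of each other. With a range of 1.07 log2, Ccnd2 was among the 2 of 7 expressed members that spanned at least 2-fold, against 12.4% of expressed genes. The other, Cdkn2a, passed the expression level only through tumour 3. Ccnd3, the third D cyclin, read 1277, 1293, 1384 and 1196, with a range of 0.21 log2, or of 0.11 without tumour 3 or tumour 4 and 0.32 with arrays shifted to a common median. Its SD of 0.09 was larger than that of 8.14% of expressed genes, so it was among the steadier transcripts on these arrays. The 3 D cyclins were each highest in tumour 3, by 0.24, 0.18 and 0.10 log2 over the next tumour, while tumour 1 was low for Ccnd1 and Ccnd2 and in the middle for Ccnd3. Tumour 3 also had the highest ratio of 3' to 5' signal on the beta-actin control probe sets, 0.48 log2 against 0.30 in each of the others, but not on those of GAPDH, with -0.02 against 0.01 to 0.04. The part of this in the cyclin values was not tested. Tumour 1 was also lowest for all 6 luminal markers and highest for all 6 macrophage markers. Tumour 3 had the highest summed luminal signal, with 3 of 6 luminal markers highest there. It was lowest for 5 of 6 macrophage markers, 3 of 5 basal markers and all 5 T-cell markers, of which 1 was expressed. The part of these marker differences in the cyclin values was not tested.

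Cdk4, the main catalytic partner of the D cyclins, read 2895, 4172, 4192 and 3715 in tumours 1 to 4, a mean of 3743 ± 607 (SD, n = 4). Tumour 1 was again the low sample, 0.36 log2 under the next, and the other 3 lay within 0.17 log2. Tumours 2 and 3 differed by 0.01 log2, and their order turned round under quantile normalization. Cdk6, the alternative partner, was dim, with 76.0, 67.8, 72.6 and 40.8. Tumour 4 was lowest, and without it the range of 0.69 log2 became 0.13, but all 4 values were under the expression level, and the highest tumour changed with the scaling. Ccne1, the cyclin that follows in late G1, read 202, 236, 216 and 158, with a range of 0.53 log2 around the expression level, or of 0.21 without tumour 4. Tumour 2 was highest and tumour 4 lowest.

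Rb1, the target of these kinases, did not share the order of the cyclins. It read 670, 884, 472 and 503 in tumours 1 to 4, a mean of 632 ± 189 (SD, n = 4). Tumour 2 was highest, 0.39 log2 over tumour 1, and tumours 3 and 4 were low and 0.09 log2 apart. The range was 0.88 log2, or 0.49 without tumour 2. Tumours 3 and 4 exchanged places when arrays were shifted to a common median. Tumour 3 thus had the highest Ccnd1, Ccnd2 and Ccnd3 signals and, as deposited, the lowest Rb1 signal.

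**Figure D2:**
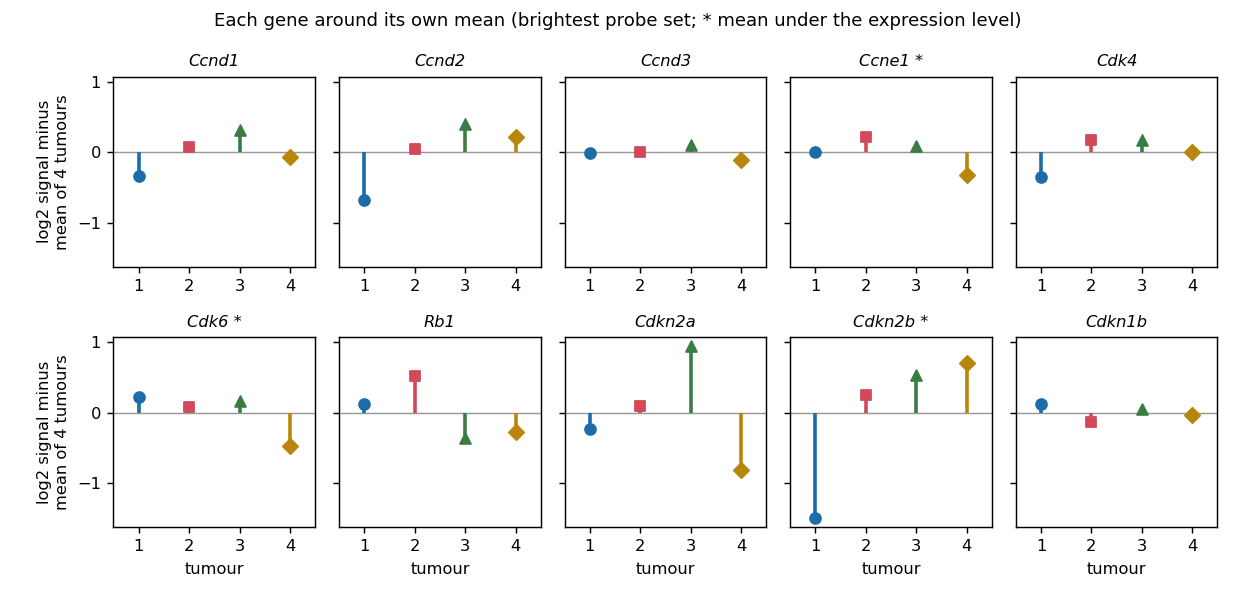
Brightest probe set of each member, shown as log2 signal minus the mean of the 4 tumours, in 1 panel a gene with tumours 1 to 4 on the horizontal axis. Tumour 1 lies under the mean for Ccnd1, Ccnd2, Cdk4 and Cdkn2b, tumour 2 is the high point for Rb1, and Cdkn2a has tumour 3 at the top and tumour 4 at the bottom. An asterisk marks a mean under the expression level.

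Cdkn2a had the widest spread of the members counted as expressed, with an SD of 0.73 log2. It encodes the INK4 inhibitor p16 and, in another reading frame, the p19Arf protein that acts on p53. Its single probe set read 186, 237, 441 and 119 in tumours 1 to 4, a mean of 246 ± 139 (SD, n = 4). Tumour 3 was high, 0.85 log2 over the next, tumour 4 was low by 0.58, and the range was 1.76 log2. Tumours 1 and 4 were under the expression level, so the size of the range is uncertain. Without tumour 3 the range was 0.90 and the mean was under the expression level, so the high value that sets the spread also let the gene pass. The files do not tell which of the 2 products the probe set records. Fibroblast markers were also lowest in tumour 4, and their part in this pattern was not tested.

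Cdkn2b, which encodes p15, had a different order. It read 23.7, 117, 147 and 167 in tumours 1 to 4. Tumour 1 was at least 2-fold under each of the others, with a gap of 1.75 log2 to the next, and the other 3 lay within 0.46 log2. No tumour reached the expression level, so these values describe a dim probe set. The range of 2.21 log2, with the pseudocount of 16, became 2.77 and 1.40 with pseudocounts of 1 and 64. Tumour 4 thus had the highest Cdkn2b signal and the lowest Cdkn2a signal.

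Cdkn1b, the p27 gene, was steady on its bright probe set, with 3377, 2844, 3229 and 3031 in tumours 1 to 4, a mean of 3120 ± 233 (SD, n = 4) and a range of 0.25 log2. Its SD of 0.11 was larger than that of 14.4% of expressed genes. Its other probe set was dim and read 190, 147, 260 and 258, with a range of 0.76 log2. Tumour 2 was lowest on both, while the highest was tumour 1 on the bright probe set and tumour 3 on the dim. With arrays shifted to a common median, tumour 4 took the lowest place on the bright probe set, so no order of tumours is read from Cdkn1b.

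Counts over the 7 expressed members were read against all 9403 expressed genes. Ccnd2 and Cdkn2a, 2 of 7, had a range of at least 2-fold, against 12.4% of expressed genes. A range of 4-fold was reached by 0 of 7, against 2.42% of expressed genes. In 0 of 7 did a tumour lie at least 2-fold from each of the others, against 3.81%. The median SD was 0.27 log2 for the members and 0.21 for all expressed genes. Tumour 3 was highest for 5 of 7 (Ccnd1, Ccnd2, Ccnd3, Cdk4 and Cdkn2a), against 24.5% of expressed genes. The count was 4 under quantile normalization, which moved Cdk4, and 6 with arrays shifted to a common median, with probe sets averaged or without tumour 1, each of which added Cdkn1b. Tumour 1 was lowest for 3 of 7 (Ccnd1, Ccnd2 and Cdk4), against 36.2%, which is near the background. Cdkn2a passed the expression level only through tumour 3, so these counts do not support anything about it. Over the other 6 members, an alternative added after the data were seen, 1 had a 2-fold range, 4 were highest in tumour 3 and the median SD was 0.26. Shares of so few genes are coarse, and nothing is called particular to the members from them. Without tumour 1 only Cdkn2a kept a range of 2-fold, and without tumour 3 none of the 6 members then expressed had it.

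Between pairs of tumours, the median difference over the members, regardless of sign, was widest for tumours 1 and 3, at 0.53 log2 against 0.28 for all expressed genes. Of the expressed members, Ccnd2 and Cdkn2a differed by at least 1 log2 in that pair. It was smallest for tumours 2 and 4, at 0.16 against 0.22. Tumours 3 and 4 differed by a median of 0.18 against 0.20, and Cdkn2a was the only expressed member at least 1 log2 apart there. The share of all expressed genes at least 1 log2 apart in a pair was not computed. Cdkn2a passed the expression level only through tumour 3, so nothing about the members is read from these pairs.

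**Figure D3:**
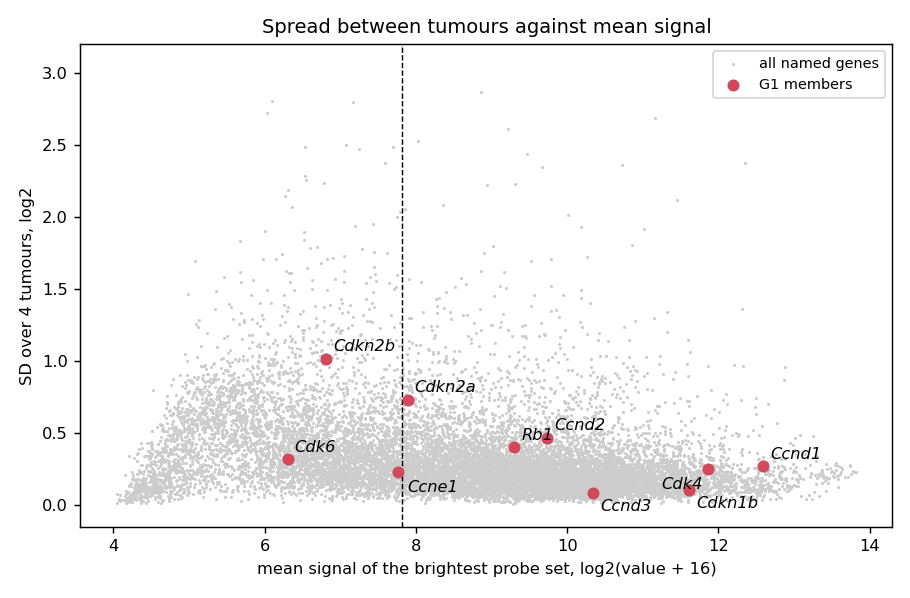
SD over the 4 tumours against mean signal, both in log2, for all 14217 named genes (grey) and the 10 members (red), each on its brightest probe set. Cdkn2b and Cdkn2a stand highest among the members, with SDs of 1.02 and 0.73, Ccnd3 and Cdkn1b lowest, with 0.09 and 0.11, and the dashed line is the expression level.

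The expressed genes whose centred pattern was nearest to that of Cdkn2a were Angptl4, Cfi, Thy1, Srpx and Esrrb, out of 9402 compared over the 4 tumours. The root mean square difference after centring was 0.12 log2 for Angptl4 and 0.16 to 0.18 for the others, while Cdkn2a itself departed from its mean by 0.63 on the same measure. Angptl4, a secreted inhibitor of lipoprotein lipase, measured 8.91, 9.05, 9.81 and 8.34 log2 in tumours 1 to 4. Thy1, a surface antigen of fibroblasts and some other cells, measured 9.14, 9.79, 10.18 and 8.59. Its other probe set was also lowest in tumour 4, at 8.65, but highest in tumour 1, at 9.39. With 4 tumours many genes can match a pattern closely, and the likeness is a description only.

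The remaining kinase inhibitors also differed from each other in the order of the tumours. Cdkn2c, the INK4 gene of p18, measured 10.03, 11.11, 10.57 and 9.78 log2 in tumours 1 to 4, with a range of 1.34. Tumour 2 was highest and tumour 4 lowest, and its dim second probe set, between 6.50 and 6.95, did not share this order. Cdkn2d, the INK4 gene of p19, was steady at 8.88 to 9.16, highest in tumour 3 and lowest in tumour 4. Its second expressed probe set, at 8.16 to 8.40, was highest in tumour 4 and lowest in tumour 2. Cdkn1a, the p21 gene and a p53 target, measured 10.19, 9.75, 10.46 and 10.41. Tumour 2 was lowest on both of its probe sets, the second reading 8.79, 8.20, 8.42 and 9.16. Cdkn1c, the p57 gene, was at 8.95 in tumour 3, against 8.09 to 8.23 in the others. On their brightest probe sets, the highest tumour was thus tumour 3 for Cdkn1a, Cdkn1c, Cdkn2a and Cdkn2d, tumour 2 for Cdkn2c, tumour 4 for Cdkn2b and, as deposited but not under a common median, tumour 1 for Cdkn1b. With probe sets averaged, tumour 4 was highest for Cdkn1a and tumour 3 for Cdkn1b.

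**Figure D4:**
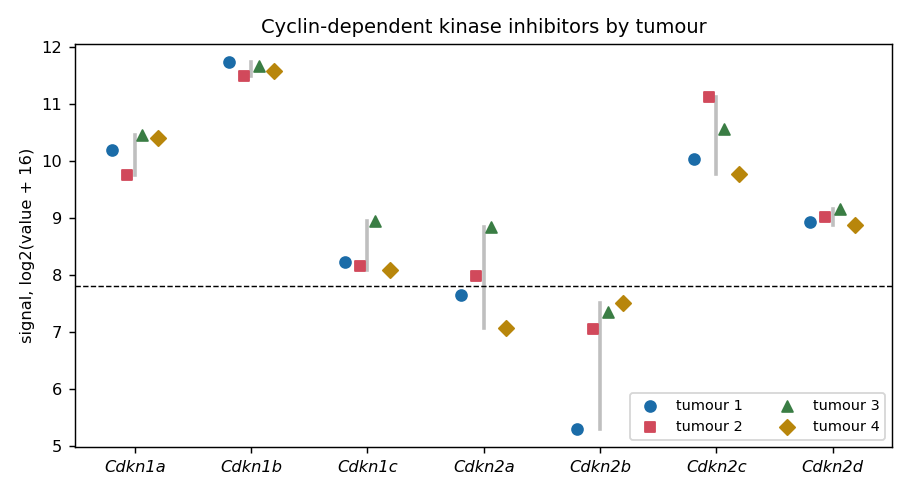
Signal of the 7 cyclin-dependent kinase inhibitor genes, log2(value + 16), on the brightest probe set, with symbols for the 4 tumours and a grey line from lowest to highest. Cdkn2a, Cdkn2b and Cdkn2c span 1.76, 2.21 and 1.34 log2, and the dashed line is the expression level, which no Cdkn2b value reaches.

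Other regulators of G1 were described from a list of 41 genes (E2F and DP factors, pocket proteins, inhibitors, kinases that activate other kinases, turnover factors and upstream regulators), of which 37 were named and 34 expressed. A range of 2-fold was found in 3 of 34, against 12.4% of expressed genes, and the median SD was 0.20 log2. The 3 were Cdkn2c, Mycn and E2f2. Mycn, a Myc-family transcription factor, measured 9.69, 9.47, 8.14 and 10.19 log2 in tumours 1 to 4. Tumour 3 was thus at least 2-fold under each of the others, on its only probe set. E2f2, an activating E2F factor, measured 8.66, 7.56, 8.60 and 8.57, with tumour 2 low and under the expression level. Myc, which acts upstream of Ccnd2 and Cdk4, measured 10.70, 11.16, 11.15 and 10.21. The pocket protein genes were steadier than Rb1, with ranges of 0.49 log2 for Rbl1 and 0.26 for Rbl2. Cdk2, the partner of cyclin E, measured 9.25, 9.70, 9.52 and 9.56, lowest in tumour 1, but its second expressed probe set, at 8.59 to 8.95, was lowest in tumour 4. Ccne2, the second E cyclin, measured 8.44, 8.16, 8.29 and 7.76, lowest like Ccne1 in tumour 4. On the second probe set of Ccne2, under the expression level, the 4 values lay within 0.09 log2.

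In the S-phase and mitotic lists, tumour 2 and not tumour 3 was most often the high sample. The other G1 regulators were divided, with 13 of 34 highest in tumour 2 and 11 in tumour 3, against 26.4% and 24.5% of expressed genes. Their median differences there were 0.11 and 0.10 log2. Of 21 expressed E2F targets and S-phase genes (of 28 listed, 24 named), 16 were highest in tumour 2, against 26.4% of expressed genes, and their median there lay 0.25 log2 over the mean of the remaining tumours, against 0.04 for all expressed genes. Of 16 expressed G2 and M-phase genes (of 17 listed, all but Tpx2 named), 15 were highest in tumour 2, with a median difference of 0.59. As deposited none of these genes was highest in tumour 3, and 1 S-phase gene was with the common median, quantile normalization or averaged probe sets. Without tumour 2, 4 S-phase and 6 G2 and M-phase genes were highest in tumour 3, and without tumour 4, 1 of each. The median differences of tumour 3 were -0.11 and -0.13 as deposited and -0.02 and -0.04 with arrays shifted to a common median. For the 7 members the median difference was -0.31, 0.10, 0.24 and -0.08 in tumours 1 to 4, and the value in tumour 1 is that of Cdkn2a itself. The S-phase genes with a 2-fold range were Uhrf1, a DNA methylation maintenance factor, at 9.76 log2 in tumour 2 against 8.49 to 9.22 in the others, and Ccna2, cyclin A, at 9.70 against 8.57 to 9.01. Rfc4, a clamp loader subunit, had the third largest SD of that list, 0.43. Among mitotic genes, the checkpoint kinase Bub1 was at 8.92 against 7.71 to 8.16 and the kinesin Kif23 at 9.79 against 8.71 to 9.39. Cdc20, an activator of the anaphase-promoting complex, had the third largest SD there, also 0.43. As deposited, Rb1 and Ccne1 were the only members highest in tumour 2. Rb1 exceeded the mean of the other tumours by 0.69 log2 and Ccne1 by 0.29, while Ccnd1, Ccnd2 and Ccnd3 exceeded it by 0.10, 0.07 and 0.01. The differences were 0.23 for Cdk4, 0.33 for the dim Cdkn2b, 0.12 for Cdkn2a, 0.11 for the dim Cdk6 and -0.17 for Cdkn1b. Under quantile normalization Cdk4 was also highest in tumour 2.

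**Figure D5:**
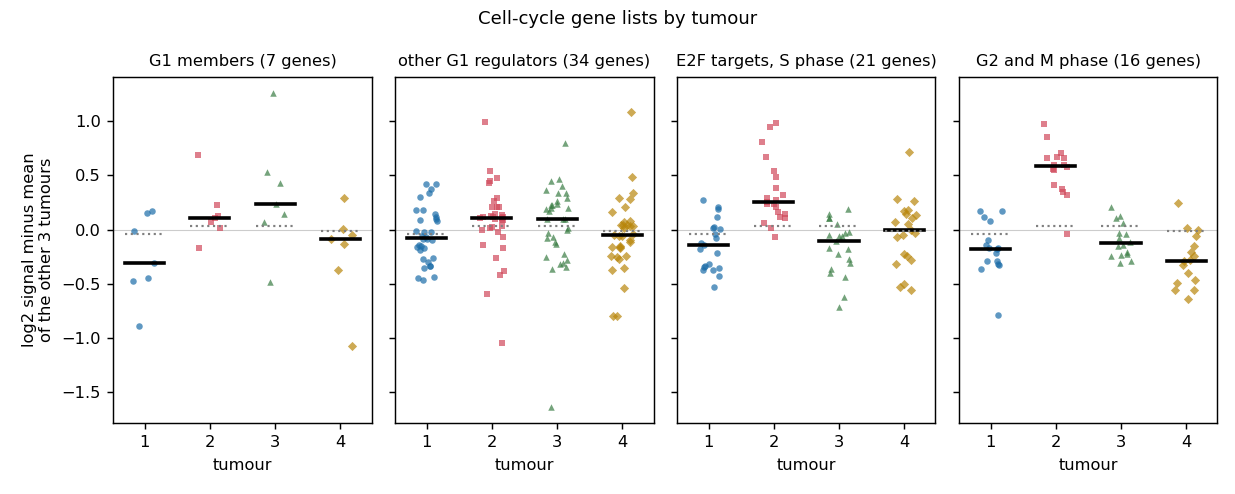
Difference of each tumour from the mean of the other 3, log2, for the expressed members and 3 cell-cycle lists, with 1 point a gene, a black line at the list's median and a dotted line at the median of all expressed genes. The S-phase and G2 and M-phase medians in tumour 2 are 0.25 and 0.59, and the members' highest median, 0.24, is in tumour 3.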

How the data were processed

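The 4 arrays form 1 group by their titles. The authors deposited 1 linear intensity value for each of 31099 probe sets and tumour. How these were background-corrected and scaled, and with which software, is not given in the sources used here. By their values the deposited arrays share a trimmed mean (2% from each end). Per the labels' protocols, 8 µg of total RNA was copied into cDNA from oligo-dT primers, which favours 3' ends. No 2 arrays held identical values. Precision is limited by the number of arrays, and detection calls were not used.

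Intensities were taken as deposited, as log2(value + 16), with Python 3.11.15, pandas 2.3.3 and numpy 2.4.6. The platform annotation assigned 20826 probe sets to 1 gene, and 436 naming several were left out. The brightest probe set stood for a gene in counts. No difference between tumours was tested: a range is the highest minus the lowest tumour, and a difference is a tumour minus the mean of the other 3. The rules of size were run on simulated data, with shifts far larger than the 2-fold rule and noise smaller than the SD of the median expressed gene. That run checked the code and cannot give the error of the rules on these tumours. Dixon's ratio for 4 values was used to pick out single tumours far from the others. All members are named with every probe set. From each list the genes with a 2-fold range are named, or the 3 of largest SD, and the 5 genes nearest in pattern to the expressed member of largest SD. Myc, Cdk2, Ccne2, Rbl1, Rbl2 and the remaining inhibitors were named after their values were seen. Members and lists were chosen with earlier results of these data known. Pseudocounts, scalings, the expression filter, averaged probe sets and omission of each tumour were tried.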

Additional observations from a re-analysis of the deposited data

Results flagged for a closer look

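E2f2 was low in tumour 2, at 7.56 log2, with a gap of 1.00 log2 to the next tumour that made up 0.911 of its whole range. It was the only 1 flagged of 27 probe sets examined. Chance flags about 1 in 20 groups of 4, but some of the 27 were picked by their spread or pattern in these tumours. That rate does not hold for those. E2f2 has 1 probe set, and its value in tumour 2 is under the expression level. The 27 were those of the members and the brightest of the list genes named by rule and of the genes nearest to Cdkn2a. Genes named only after their values were seen were not examined. Among these, Cdkn1c was highest in tumour 3, at 8.95 log2 against 8.09 to 8.23 in the others, and under 2-fold from the next.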

How the results depend on the processing

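The alternatives were pseudocounts of 1 and 64, arrays shifted to a common median, quantile normalization, averaged probe sets, no expression filter, the brighter 25% of probe sets, and omission of each tumour. A gene's range cannot change with the expression filter, or with omission of a tumour at neither end of its range. Nor can averaging change it where there is 1 probe set. Counts of unmoved ranges therefore overstate how steady they are. With such values included, the range of the 10 members moved by less than their SD in 100 of 110 recomputed values. The other 10 were Cdkn2b, Ccnd2 and Cdk4 without tumour 1 (0.46, 0.35 and 0.17), Cdkn2a without tumour 3 (0.90), Cdk6 and Ccne1 without tumour 4 (0.13 and 0.21), Ccnd3 without tumour 3 or 4 (0.11 each) or with arrays shifted to a common median (0.32), and Cdkn1b with probe sets averaged (0.47). Moves by over 1.5 times but under the SD were Ccnd1 without tumour 1 or 3 (0.38 and 0.41) or quantile normalized (0.42), Rb1 and Cdkn1b without tumour 2 (0.49 and 0.16), and Cdk6 and Cdkn2b with a pseudocount of 64 (0.42 and 1.40). No list median of a size above its genes' SD changed sign, but only the members in tumour 1 and the S-phase and mitotic lists in tumour 2 had one. The members' median in tumour 1, -0.31, is the value of Cdkn2a itself, which passed the expression level only through tumour 3. No steadiness of the members is therefore read from it. Smaller medians did change sign. The G2 and M-phase median of tumour 1 went from -0.18 to 0.02 without tumour 2. The members' median of tumour 4 went from -0.08 to 0.01 with probe sets averaged. The number of members with a 2-fold range was 1 with the brighter 25% of probe sets, where 5 members remained in the count, and 0 to 2 with a tumour omitted. It was 1 without tumour 1, 0 without tumour 3 and 1 over members other than Cdkn2a, the last added after the data were seen. The number with a tumour 2-fold from all others was 1 with no expression filter (Cdkn2b), and 0 to 1 with a tumour omitted, the 1 arising without tumour 2 (Cdkn2a). With the brighter 25% of probe sets, 1 other G1 regulator, 0 S-phase genes and 0 G2 and M-phase genes had a 2-fold range, as fewer genes were counted. With a tumour omitted these counts were 1 to 3, 0 to 2 and 0 to 2. All 3 were lowest without tumour 2, at 1, 0 and 0, and the last was 1 without tumour 1 or tumour 4. Averaging probe sets gave 1 G2 and M-phase gene. Apart from fewer genes or samples, the cause was not tested. No paired analysis was possible because there is 1 group. Signals near background limit Cdk6, Cdkn2b and the low values of Cdkn2a.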
